A study of Drosophila melanogaster with 12 samples.

Results

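The odorant-binding protein genes of Drosophila melanogaster, named Obp, were examined in RNA from whole heads of flies with and without Nab2, a polyadenosine RNA-binding protein. The genes were chosen by name, as every gene of the count files whose name is Obp followed by a digit, except Obp99b, provided that it had at least 10 raw counts summed over the 12 libraries. Of 17737 genes in the files, 50 had such a name and 40 passed the count limit. The 4 groups were females and males of a Nab2 null genotype (Nab2ex3) and females and males of a control genotype (Nab2pex41) that the labels call wild type. Each group had 3 libraries, described in the series' design text as biological replicates, and each library came from 60 pooled heads of newly eclosed adults. Total RNA was depleted of ribosomal RNA before sequencing, so all 4 groups are whole heads with antennae, mouthparts, eyes, brain, cuticle and head fat body mixed. In such bulk RNA, fewer cells of a type and less RNA per cell cannot be told apart.

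Odorant-binding proteins are small, soluble proteins with a helical fold held together by disulfide bridges. In the antenna, support cells at the base of an olfactory hair secrete them into the lymph around the dendrites, where they can carry hydrophobic odorants and pheromones towards receptors such as the Or proteins and their co-receptor Orco, or take part in clearing them. Many members are also made outside the olfactory hairs, in taste organs, glia, fat tissue or the reproductive tract, and the family is divided by its cysteines into classic members, Minus-C members that have lost a conserved pair, Plus-C members that have gained some, and dimer members with a repeated domain.

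Of the 40 genes, 21 lie on chromosome arm 2R, 10 on 3R, 6 on X, 2 on 3L and 1 on 2L. The 5 Minus-C genes were Obp8a, Obp44a, Obp99a, Obp99c and Obp99d, and all passed the count limit, whereas 6 of 13 Plus-C genes did. Obp57e, with 10 counts, was just inside the limit, and Obp50d, with 9, was just outside it. A filter on low counts (edgeR's filterByExpr) kept 33 of the 40 genes for testing. The 7 genes that it left out were Obp85a with 45 counts in all, Obp58d with 25, Obp56i with 24, Obp47b with 19, Obp73a with 16, Obp50e with 12 and Obp57e. In no library did any of them exceed 0.353 CPM (the usual count scaled to library size, here with TMM factors). Among the 10 genes below the limit, Obp50b, Obp50c and Obp57d were listed at 0 in all libraries; in the annotation each shares its whole exonic sequence with another gene, so that reads there match more than 1 gene.

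The 12 libraries held between 23648813 and 30751922 counts. Nab2 itself was at 57.3 to 64.0 CPM in the 6 wild-type libraries and at 0.456 to 3.21 in the 6 null libraries, as the labels say. Null female library 1 stood apart from its group: a chi-square comparison of gene counts gave 130 and 107 per degree of freedom against the other null females, whereas the other pairs of replicates gave 6.23 to 40.6. Changes are given as log2 values with a standard error (SE), from edgeR's quasi-likelihood fit to all 12 libraries, and a gene was called where the p adjusted over all 11223 tested genes by the Benjamini-Hochberg method was under 0.05. P-values measure the spread between these pooled samples.

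A few Obp genes made up most of the family's RNA in the head. Per kilobase of exon, the scale on which different genes were compared, Obp44a was highest at a mean of 1119 CPM per kilobase over the 12 libraries, ranging from 930.1 to 1444. It is a Minus-C gene known from glia, where its product binds fatty acids. Next came Obp99c at a mean of 905.5 CPM per kilobase, Obp56e at 734.8, Obp19d at 570.3, Obp57c at 543.1 and Obp56d at 409.0. Obp19d, also known as Pbprp2, is made in both olfactory and taste organs, and Obp56e is known as well from the male reproductive tract. Among 11177 tested genes with a known length, these 6 genes lay between the 97.5th and the 99.3rd percentile of level, and they held 80.15% to 89.2% of the summed CPM of the 40 genes. A step below followed Obp56g at 123.1, Obp28a at 112.5 and Obp83b at 111.2 CPM per kilobase. At the lower end of the tested genes were Obp56c at 1.755, Obp56b at 1.732 and Obp58b at 0.773. Over all 12 libraries the ranges of Obp44a and Obp99c overlapped, as did those of each next pair among the leading 6. These ranges pool the 4 groups, and the order of the group means differed between groups. Obp44a had 1007 CPM per kilobase and Obp99c 588.6 in wild-type females, and 1190 against 739.1 in wild-type males. In null females Obp56e at 1377 and Obp99c at 1214 had higher means than Obp44a at 1068.

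Summed over the 40 genes, the family had 3304 to 4346 CPM for wild-type females, 4572 to 6678 for null females, 3441 to 3733 for wild-type males and 3485 to 3869 for null males. On this TMM-scaled measure all null female libraries exceeded all others, while the sums of the male groups overlapped. As a share of raw counts the female groups overlapped, at 0.4424% in null female library 3 and 0.4438% in wild-type female library 1. Obp44a had 1128, 1001 and 1122 CPM for wild-type females, 1213, 1176 and 1059 for null females, 1217, 1160 and 1465 for wild-type males and 1221, 1553 and 1133 for null males. Its groups overlapped between genotypes in both sexes, and the fitted null-to-wild-type difference was 0.08 (SE 0.13) for females and 0.02 (SE 0.13) for males on the log2 scale, neither called. Its share of the family sum ran from 18.16% in null female library 1 to 40.61% in wild-type male library 3.

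**Figure D1:**
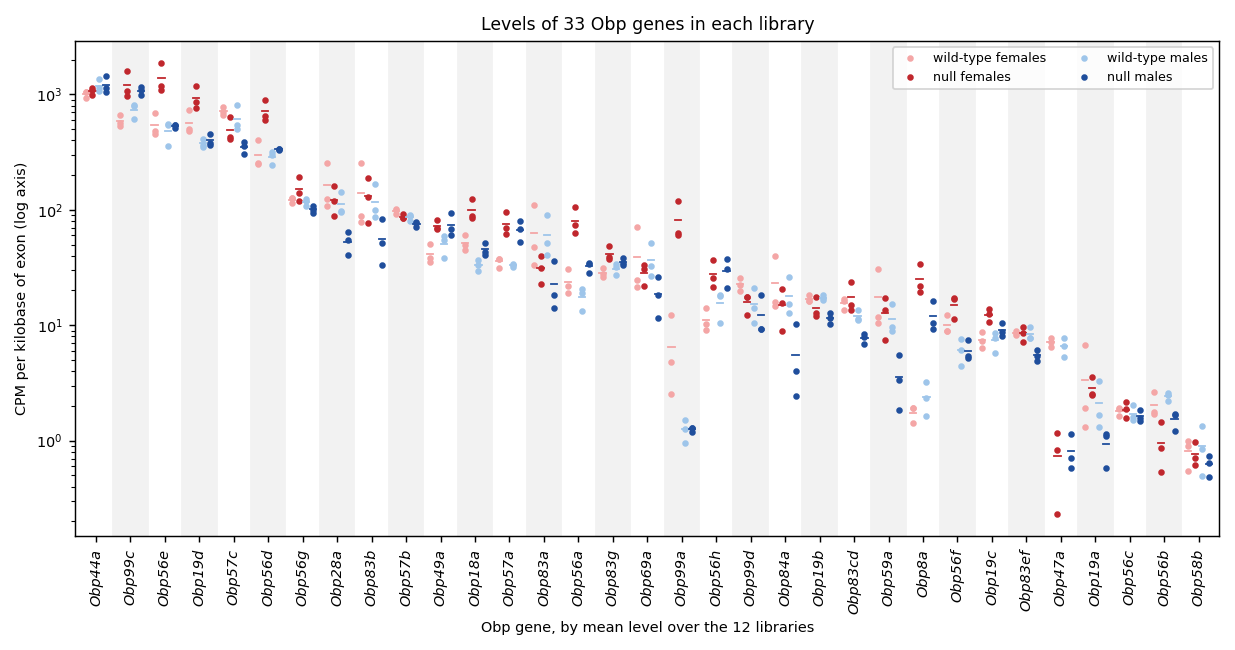
Level of each of the 33 tested Obp genes in each of the 12 libraries, in CPM per kilobase of exon on a log axis, with genes in order of their mean level; points are libraries, short lines are group means, and colours are the 4 groups. Obp44a is highest at a mean of 1119, Obp58b lowest at 0.773, and Obp99a and Obp8a show null female points far above those of wild-type females.

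Loss of Nab2 was accompanied by higher RNA of many Obp genes in females and by differences in both directions in males. In null females 15 of the 33 tested genes were called against wild-type females, 13 higher and 2 lower, which is 45.5%, beside 31.8% of all tested genes called in that comparison (18.2% higher and 13.6% lower). In null males 7 of 33 were called, 3 higher and 4 lower, which is 21.2%, beside 9.93% of all tested genes (4.89% higher and 5.03% lower). The median log2 difference of the 33 genes was 0.08 in females, against 0.01 over all tested genes, and -0.19 in males, against 0.00. Scaling by total counts alone moved the median of all genes by -0.11 in females and -0.03 in males; the Obp calls were then 13 higher and 4 lower in females, beside 12.4% higher and 20.1% lower over all genes, and 3 higher and 7 lower in males, beside 4.35% and 5.93%. Without regard to the test, 13 Obp genes were higher and 5 lower in null females with no overlap between the groups, beside 24.7% and 23.2% of all tested genes; in null males 8 were higher and 15 lower, beside 16.4% and 17.6%. At an unadjusted p under 0.05 in edgeR's test there were 18 Obp genes in females, or 54.5%, beside 44.3% of all tested genes, and 19 in males, or 57.6%, beside 24.1%. The male count of 7 depended on the fit: DESeq2 called 13, beside 13.1% of all genes it tested, and leaving out 1 library gave 3 (without null male library 3) to 13 (without null female library 1). Over all genes edgeR's male calls were 1114 with all 12 libraries, 693 without null male library 3 and 1852 without null female library 1. The genes called in both sexes were Obp8a, Obp56a and Obp57a, higher, and Obp47a, lower, which are 26.7% of the female and 57.1% of the male calls. Calls shared by the sexes were not counted over all tested genes, so these percentages cannot be read as particular to the Obp genes.

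**Figure D2:**
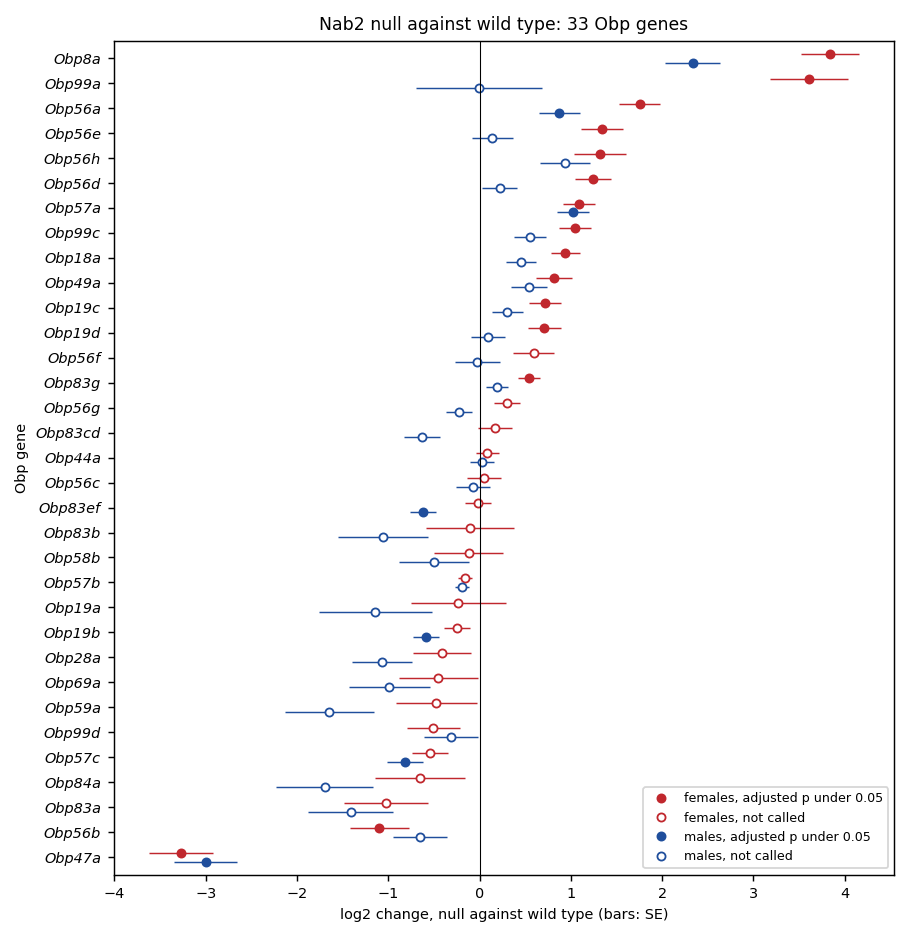
Log2 change in Nab2 null against wild type for the 33 tested Obp genes in females (red) and males (blue), with bars of 1 SE; filled points passed an adjusted p of 0.05 in edgeR's test, open points did not. Obp8a (3.84 in females, 2.34 in males) and Obp47a (-3.27 in females) lie at opposite ends, and Obp99a lies at 3.61 in females and -0.01 in males.

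Obp8a, a Minus-C gene of the X chromosome (chrX:9214876-9215699, plus strand, BDGP6) known from the male reproductive tract, had the largest increase among the Obp genes in both sexes. It was barely present in wild-type heads, with 33, 22 and 27 raw counts in females and 52, 45 and 29 in males. Null females had 457, 339 and 307 counts and null males 247, 138 and 151. Every null library exceeded every wild-type library of either sex, and the null females exceeded the null males. The log2 change reached 3.84 (SE 0.32, adjusted p = 1.73e-05 by edgeR's test), a 14.3-fold rise, in females and 2.34 (SE 0.30, adjusted p = 5.45e-04), a 5.05-fold rise, in males. A list of 14 genes of the male reproductive tract summed to 0.374 to 0.85 CPM in any library, with 3 of them at 0 throughout and 1 that could be tested and was not called in either sex.

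Obp47a (chr2R:10909923-10910485, plus strand) showed the opposite and was the Obp gene that fell furthest in both sexes. It had 94, 92 and 91 counts for wild-type females and 89, 86 and 115 for wild-type males. In the nulls 13, 3 and 11 counts remained in females and 9, 14 and 7 in males. The genotypes were far apart in both sexes, and the sexes overlapped within each genotype. Obp47a fell by 3.27 on the log2 scale in females (SE 0.35, adjusted p = 1.04e-04 by edgeR's test) and by 3.00 in males (SE 0.34, adjusted p = 2.51e-04), to levels 9.65-fold and 8.01-fold lower.

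Obp57a and Obp56a completed the set called in both sexes. Obp57a had 21.13, 17.53 and 21.11 CPM for wild-type females against 53.63, 38.66 and 34.73 for null females, and 17.84, 18.63 and 18.76 for wild-type males against 44.97, 29.35 and 38.0 for null males. The rise was of like size in the sexes, with log2 values of 1.09 (SE 0.17) for females and 1.02 (SE 0.17) for males and adjusted p-values of 0.00116 and 0.00323 by edgeR's test. Obp56a had 16.83, 11.91 and 10.43 CPM for wild-type females and 57.46, 40.66 and 34.28 for null females. Its male values were 10.43, 11.24 and 7.254 CPM for wild type and 18.98, 18.5 and 15.54 for the null. The groups were apart in both sexes, with log2 changes of 1.75 (SE 0.23, adjusted p = 2.94e-04) in females and 0.87 (SE 0.23, adjusted p = 0.0316) in males by edgeR's test. The male call of Obp56a was lost when any of 5 male libraries was left out, with adjusted p-values from 0.0504 to 0.103.

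Obp99a (chr3R:29671657-29672334, plus strand), another Minus-C gene, rose in females and was not called in males. Wild-type females had 7.467, 2.929 and 1.556 CPM and null females 72.97, 38.77 and 37.24. In males the level stayed under 1 CPM, with 0.5875, 0.9266 and 0.776 for wild type and 0.7841, 0.7288 and 0.7873 for the null. The female groups were far apart even though the wild-type females spread 4.8-fold, and the male groups overlapped. The log2 change was 3.61 (SE 0.43, adjusted p = 1.75e-04 by edgeR's test) in females, a 12.2-fold rise, and -0.01 (SE 0.69, adjusted p = 0.998) in males. The difference between these effects was 3.62 (SE 0.82), with an unadjusted p of 8.30e-04 and an adjusted p of 0.371 in edgeR's test. DESeq2 gave it an adjusted p of 0.00352, and edgeR without wild-type female library 1 gave 0.039.

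The yolk protein genes, female-specific products of the fat body, were like Obp99a highest in null females and lower in males than in wild-type females. Yp3 had 772, 334 and 243 CPM for wild-type females, 12400, 5330 and 6220 for null females and 18.9 to 35.4 in males. In both Obp99a and Yp3, library 1 was highest and library 3 lowest among the wild-type females, and library 1 was highest among the null females. Among the null females library 2 was lowest for Yp1, Yp2 and Yp3, and library 3 for Obp99a. Yp2 was lowest in library 2 among the wild-type females as well. In each female group library 1 was highest for most Obp genes. Of 10 fat body genes, 7 were called higher in null females and 4 for null males, and none lower, beside 18.2% and 4.89% of all tested genes called higher. Their summed level was 4090 to 6170 CPM for wild-type females, 21300 to 36000 for null females, 2740 to 4070 for wild-type males and 4330 to 7530 for null males. The part of fat body RNA in the changes of Obp99a and the other Obp genes was not tested.

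Several of the most abundant Obp genes also rose in females. Obp56e had 370.5, 257.7 and 240.9 CPM for wild-type females and 990.6, 626.9 and 580.6 for null females, and in males 296.3, 286.2 and 190.4 for wild type and 274.0, 288.5 and 288.2 for the null. Obp56d had 370.7, 228.5 and 233.9 CPM for wild-type and 826.0, 596.6 and 551.1 for null females, and 290.3, 276.3 and 227.7 for wild-type and 309.5, 313.4 and 301.4 for null males. In females both genes were apart between genotypes, while the males of both genotypes lay close together. The female log2 changes were 1.34 (SE 0.23, adjusted p = 0.00167) for Obp56e and 1.24 (SE 0.19, adjusted p = 0.00103) for Obp56d in edgeR's test. The male differences, 0.14 (SE 0.22) and 0.22 (SE 0.19), were not called. In the annotation 449 of the 532 exonic bases of Obp56e are covered by an antisense RNA gene, CR44509, which had 19 to 96 counts per library against 5642 to 22221 for Obp56e; the strand setting of the counting was not given in the sources used here.

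Obp99c and Obp19d were the other abundant genes that rose in females. Obp99c had 447.7, 376.6 and 357.2 CPM for wild-type and 1071, 651.5 and 714.2 for null females, and 539.2, 533.8 and 410.3 for wild-type and 731.2, 664.2 and 772.5 for null males. All null libraries were above the wild-type libraries of their sex. The log2 change was 1.04 (SE 0.18, adjusted p = 0.00166) in females, while 0.55 (SE 0.18, adjusted p = 0.0716) in males missed the threshold of edgeR's test. Obp19d had 800.4, 529.2 and 554.0 CPM for wild-type and 1307, 939.0 and 836.7 for null females, and 453.2, 385.6 and 403.9 for wild-type and 504.3, 416.7 and 404.7 for null males. The female groups did not overlap and the male groups did. Its female log2 change of 0.71 (SE 0.19, adjusted p = 0.014 by edgeR's test) was the least stable of the 13 higher calls, being lost when library 2 or 3 of the wild-type females or library 1 of the null females was left out, with adjusted p-values of 0.0651, 0.0624 and 0.052.

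The remaining female calls were of moderate size. Obp56h, a gene with a reported role in male mating behaviour, had 8.396, 5.356 and 6.097 CPM for wild-type and 21.89, 12.64 and 15.31 for null females, a log2 change of 1.32 (SE 0.29, adjusted p = 0.00555 by edgeR's test). In males it had 10.61, 10.9 and 6.174 CPM for wild type and 22.35, 12.51 and 18.07 for the null, and the difference of 0.93 (SE 0.28, adjusted p = 0.0534) just missed the threshold although the groups were apart. Obp18a had 44.46, 33.22 and 36.25 CPM for wild-type and 90.45, 65.52 and 62.36 for null females, and its log2 change was 0.94 (SE 0.16, adjusted p = 0.00167). In males Obp18a had 24.42, 27.09 and 21.53 CPM for wild type and 38.15, 31.9 and 29.87 for the null, again without overlap, but the difference of 0.45 (SE 0.16, adjusted p = 0.102) was not called. Obp49a, a Plus-C gene of taste hairs known for the suppression of sweet responses by bitter compounds, had 39.36, 29.82 and 27.37 CPM for wild-type and 63.3, 54.3 and 52.77 for null females, with a log2 change of 0.82 (SE 0.20, adjusted p = 0.01). Its male values were 42.85, 46.24 and 29.86 CPM for wild type and 52.89, 47.25 and 73.22 for the null, and 0.54 (SE 0.20, adjusted p = 0.107) was not called. Null exceeded wild type in every library of both sexes for each of these genes.

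Obp19c and Obp83g rose in females by less. Obp19c had 8.602, 7.167 and 6.223 CPM for wild-type and 13.42, 10.48 and 12.35 for null females, with a log2 change of 0.72 (SE 0.17, adjusted p = 0.0094 by edgeR's test). Obp83g had 17.93, 14.95 and 15.94 CPM for wild-type and 27.64, 22.12 and 21.52 for null females, with a log2 change of 0.54 (SE 0.12, adjusted p = 0.00666). The female groups were apart for both genes. In males Obp19c had 7.637, 8.402 and 5.668 CPM for wild type and 8.625, 7.855 and 10.32 for the null, and Obp83g had 19.2, 18.35 and 15.38 against 18.9, 21.7 and 19.89; both overlapped and neither was called.

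The second gene to fall in females was Obp56b, a low-level gene with 44, 25 and 24 counts for wild-type and 11, 8 and 22 for null females. It fell by 1.10 on the log2 scale (SE 0.32, adjusted p = 0.0232 by edgeR's test), and the closest libraries of the groups had 0.963 and 0.823 CPM. In males its CPM values were 1.469, 1.421 and 1.248 for wild type and 0.9801, 0.6883 and 0.953 for the null, also apart, with a difference of -0.65 (SE 0.29, adjusted p = 0.197) that was not called. The female call was lost when the 2 female groups were fitted alone (adjusted p = 0.0674) and when library 1 of the wild-type females, or library 1 or 2 of the null females, was left out (0.0896, 0.0632 and 0.0678).

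Besides Obp47a, the genes that fell in males were Obp57c, Obp83ef and Obp19b. Obp57c, the fifth most abundant Obp gene per kilobase, had 301.5, 278.5 and 448.4 CPM for wild-type and 199.7, 214.5 and 168.7 for null males, and 366.2, 394.7 and 436.6 for wild-type and 352.2, 239.1 and 230.0 for null females. The null libraries were below the wild-type libraries in both sexes. Its log2 change was -0.82 (SE 0.20, adjusted p = 0.0218 by edgeR's test) in males, and the female value of -0.54 (SE 0.20, adjusted p = 0.0513) just missed the threshold. Obp83ef, a dimer gene, had 6.976, 6.981 and 8.738 CPM for wild-type and 4.861, 5.547 and 4.392 for null males, a log2 change of -0.62 (SE 0.14, adjusted p = 0.018). Obp19b, a gene with a known role in amino acid taste, had 11.79, 11.15 and 10.63 CPM for wild-type and 6.547, 8.259 and 7.5 for null males, a log2 change of -0.59 (SE 0.14, adjusted p = 0.0231). In females Obp83ef stood at 7.398, 7.745 and 8.074 CPM for wild type and 8.782, 6.475 and 7.673 for the null, and Obp19b at 10.36, 10.48 and 11.73 against 7.801, 11.33 and 8.159, overlapping and not called. All these male calls were lost without null male library 3 or null male library 1, with adjusted p-values from 0.0652 to 0.0973, so that without null male library 3 only Obp8a, Obp57a and Obp47a were called in males.

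The genes that are best known from the antenna form a separate set. They were put together after their values had been seen and so were given no test of their own as a set: Obp83a and Obp83b, the products of which are also called OS-F and OS-E and act in ending odour responses, Obp28a, an abundant antennal protein, Obp59a, required for humidity sensing, Obp69a, linked to social responsiveness, Obp84a of the coeloconic hairs, and Obp19a. Obp83a had 107.8, 47.09 and 32.76 CPM for wild-type females, 31.12, 38.96 and 22.49 for null females, 88.67, 51.24 and 40.35 for wild-type males and 35.72, 18.06 and 13.84 for null males. Obp59a had 30.83, 12.02 and 10.6 CPM for wild-type females, 17.47, 13.72 and 7.486 for null females, 15.38, 8.957 and 9.818 for wild-type males and 5.567, 3.401 and 1.865 for null males. In males each of the 7 genes was lower in all null libraries than in all wild-type libraries. The same held for 15 of the 33 tested Obp genes in all and for 17.6% of all tested genes. In females all 7 overlapped, while 13 of the 33 Obp genes were apart and higher and 5 apart and lower. Over all tested genes these female shares were 24.7% and 23.2%. The pattern holds for this choice of genes. Obp19d, described above as made in both olfactory and taste organs, was not put in the set. It was called higher in null females (log2 change 0.71), and its male groups overlapped (0.09).

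None of the 7 antennal genes was called between genotypes by edgeR's test on the 4 group means of all 12 libraries, with TMM scaling and the low-count filter. With total counts alone, and likewise with no filter, edgeR called Obp28a and Obp59a lower in null males. The male log2 differences ran from -1.70 for Obp84a to -0.99 for Obp69a, with adjusted p-values of 0.054 to 0.299 in edgeR's test, and the female ones from -1.02 for Obp83a to -0.11 for Obp83b, with adjusted p-values of 0.106 to 0.878. DESeq2 called Obp84a, Obp59a and Obp28a lower in males, with adjusted p-values of 0.044, 0.025 and 0.00743. Without wild-type female library 1, the female differences of these 7 genes ran both ways, from -0.37 for Obp83a to 0.83 for Obp19a, and were not called. The same fit called 4 of the 7 lower in null males, Obp28a, Obp59a, Obp83a and Obp84a, with adjusted p-values of 0.0175, 0.0224, 0.0379 and 0.0424. Leaving out any other single library called 0 to 2 of them in males.

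The spread between replicates of a group was wide in the antennal genes. Within wild-type females the highest library exceeded the lowest by 2.38-fold to 5.2-fold in the 7 genes, against a median of 1.32-fold in the other 26. The same range was 1.44-fold to 2.43-fold in null females (median of the others 1.54-fold), 1.47-fold to 2.52-fold in wild-type males (1.33-fold) and 1.6-fold to 4.18-fold in null males (1.27-fold). Single genes among the other 26 also spread widely. Obp99a reached 4.8-fold in wild-type females, Obp47a 5.01-fold in null females and Obp58b 2.72-fold in wild-type males. Of the other 26, the number above 2-fold was 1 in wild-type females, 2 in null females, 1 in wild-type males and 0 in null males. Library 1 was the highest for all 7 genes in wild-type females and wild-type males, for 6 for null males and for 4 for null females, and library 3 was the lowest for 7, 6, 7 and 6 of them in the same order. Among the other 26 genes, library 1 was also the highest for most in both female groups, and for a minority in both male groups. The labels do not say what the libraries with the same number share.

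Orco, the co-receptor of olfactory neurons, followed a similar order. It had 76.1, 45.0 and 35.8 CPM for wild-type females, 39.9, 32.8 and 24.1 for null females, 51.0, 31.6 and 25.3 for wild-type males and 20.2, 12.8 and 13.7 for null males. The difference between genotypes was -0.70 (SE 0.31, adjusted p = 0.106, not called) in females and -1.21 (SE 0.32, adjusted p = 0.0359, called) in males by edgeR's test. The male call was lost without library 1 or 2 of the wild-type males or library 2 or 3 of the null males, with adjusted p-values of 0.0603 to 0.139. As ratios to the CPM of Orco in the same library, a measure also chosen after seeing the values, 6 of the 7 genes overlapped between genotypes in males. The exception was Obp59a, at 0.136 to 0.276 of Orco in null males against 0.283 to 0.388 for wild-type males. In females the exception was Obp28a, which was higher relative to Orco in the null, at 2.07 to 2.31 against 1.59 to 1.94. This ratio was not taken over all tested genes, so no share stands beside these counts. The part of the amount of antennal RNA in the male differences was not tested.

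**Figure D3:**
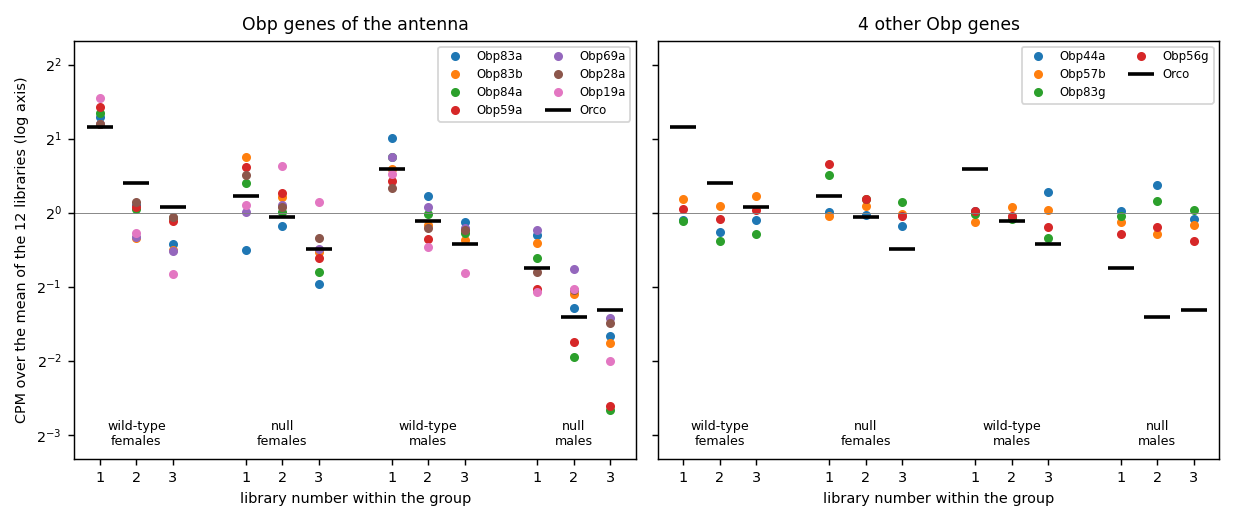
CPM of the 7 antennal Obp genes (left) and of 4 other Obp genes (right) in each library, divided by the gene's mean over the 12 libraries, on a log axis; black dashes show Orco on the same scale in both panels. In wild-type females, wild-type males and null males the antennal genes are highest in library 1 for 6 or 7 of the 7 genes. Orco is lowest in null males. The 4 other genes were picked for display and do not stand for the rest. Among the 4, Obp56g ran from 46.53 to 96.2 CPM, and Obp99a, not shown, ran from 0.5875 to 72.97 CPM.

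Other soluble and membrane proteins of the olfactory lymph differed in direction among themselves. Of 18 tested soluble chemosensory genes outside the Obp names, 5 were called higher and 1 lower in null females, and 2 higher and 1 lower in null males. Over all tested genes, the share called was 18.2% higher and 13.6% lower in females and 4.89% higher and 5.03% lower in males. The lower one was lush, which encodes the odorant-binding protein of the male pheromone cis-vaccenyl acetate, with log2 changes of -0.84 (SE 0.27, adjusted p = 0.0339) in females and -1.21 (SE 0.28, adjusted p = 0.0161) in males by edgeR's test. Its female call was lost when any of 5 female libraries was left out, with adjusted p-values of 0.0545 to 0.101, and its male call when any of 3 male libraries was (0.0573 to 0.075). The 2 that rose in both sexes were EbpIII (1.07 in females, 0.59 in males) and Phk-3 (1.04 and 0.71), relatives of the insect chemosensory proteins. Of 8 enzymes and membrane proteins, 3 were called higher and 3 lower in null females, and none higher and 4 lower in null males. Cyp6a20 fell by 1.21 in females and 1.31 in males, Jhedup by 0.96 and 1.56, and Snmp1, a membrane protein needed for pheromone detection, by 0.74 and 0.99. The higher ones in females were the esterase gene Est-6 at 1.50 (adjusted p = 0.00407), the glycosyltransferase gene Ugt35a at 0.97 (0.00662) and Snmp2 at 0.48 (0.00273) in edgeR's test, and in males the ammonium transporter gene Amt fell by 1.67 (adjusted p = 0.046). The calls of Snmp1 in both sexes, of Jhedup in females and of Amt and EbpIII in males were lost without some single libraries. Of 15 tested olfactory receptors and co-receptors, none was called higher, 4 were called lower in null females and 6 for null males, with median log2 values of -0.77 and -0.86. Their sum over 17 listed genes was 69.4 to 130 CPM for wild-type females, 48.6 to 70.2 for null females, 58.0 to 93.6 for wild-type males and 32.6 to 42.0 for null males. Ir25a, Ir76b, Ir68a and Or47b were the 4 called lower in both sexes, and leaving out single libraries ended the calls of Ir76b and Or47b in both sexes and of Ir68a in females.

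Some neighbouring Obp genes differed in direction and others did not. Obp57c, Obp57b and Obp57a lie in that order on the plus strand within 2175 bases (chr2R:20503584-20505758), with 48 bases between the first pair and 13 between the second. Obp57c was lower in the nulls of both sexes, Obp57a rose in both, and Obp57b between them had 81.21, 76.22 and 83.22 CPM for wild-type females, 69.27, 75.92 and 70.22 for null females, 65.39, 74.87 and 72.91 for wild-type males and 65.12, 58.14 and 63.44 for null males. The groups of Obp57b were apart but the log2 differences of -0.16 (SE 0.08) in females and -0.19 (SE 0.08) in males were small and not called. Obp57c and Obp57a have nearly the same exonic length, 557 and 558 bases, and Obp57c was the more abundant in every library.

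The Obp56 genes gave a further case. Obp56a to Obp56f lie within 16254 bases (chr2R:19697723-19713976). Obp56a, on the plus strand, rose in females, and Obp56b, 205 bases away on the minus strand, fell. The next gene, Obp56c, had 1.598 to 1.858 CPM for wild-type females and 1.516 to 2.096 for null females, a difference of 0.04 (SE 0.19), and Obp56d and Obp56e beyond it rose. Obp56f, just downstream of Obp56e and on the same strand, had a female difference of 0.59 (SE 0.23, adjusted p = 0.0637 by edgeR's test) that was not called. In the Obp19 genes on the X chromosome (chrX:20415744-20420979), Obp19c and Obp19d rose in females, whereas Obp19a and Obp19b had female differences of -0.23 (SE 0.52) and -0.25 (SE 0.14), not called. Among the Minus-C genes, Obp8a, Obp99a and Obp99c rose in females, and Obp44a and Obp99d, with -0.51 (SE 0.29) for the latter, were not called.

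**Figure D4:**
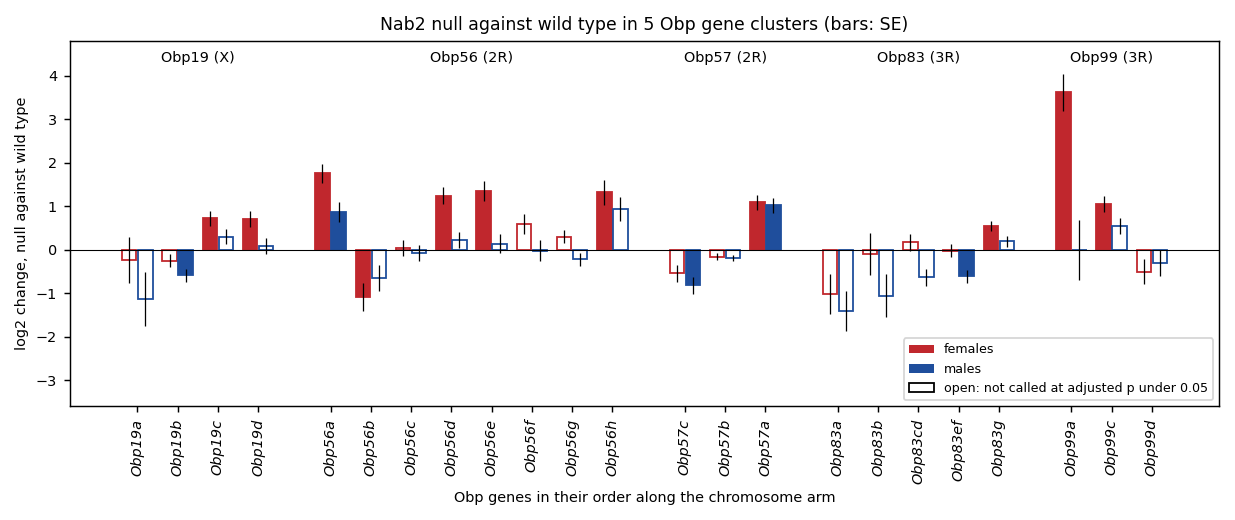
Log2 change in Nab2 null against wild type for the Obp genes of 5 chromosomal clusters in their order along the arm, in females (red) and males (blue), with bars of 1 SE; filled bars passed an adjusted p of 0.05 in edgeR's test. In the Obp57 cluster Obp57c lies below 0 and Obp57a above 0 in both sexes, and in the Obp56 cluster Obp56a and Obp56b lie on opposite sides.

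Between the sexes, 1 of the 33 Obp genes differed in wild type and 13 did in null flies, all lower in males. In wild type the called share was 3.03%, beside 3.37% of all tested genes (1.3% higher and 2.07% lower), and 1 Obp gene was higher and 5 lower with no overlap, beside 15.3% and 15.0%. The gene was Obp99a, which had 217, 76 and 37 counts in females and 16, 30 and 23 in males, with a log2 value of -2.39 (SE 0.54, adjusted p = 0.0338 by edgeR's test). This call was lost when the 2 wild-type groups were fitted alone (adjusted p = 0.053) and without wild-type female library 1 or 2 or any wild-type male library (0.0581 to 0.137). Obp18a (-0.64, SE 0.16, adjusted p = 0.0524) and Obp19d (-0.60, SE 0.19, adjusted p = 0.118) were apart between wild-type males and females and not called by edgeR; DESeq2 called both, beside 5.28% of all genes it tested.

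In null flies the called share was 39.4%, beside 29.1% of all tested genes (13.1% higher and 16.0% lower), and none of the Obp genes was higher in males. The median log2 value of the 33 genes, males against females, was -0.59 for the null and -0.11 for wild type, against -0.06 and -0.01 over all tested genes. Scaling by total counts moved the null median of all genes by 0.13 and left 13 Obp genes lower. Obp99a was 64.3-fold lower in null males than in null females, at -6.01 (SE 0.52, adjusted p = 1.18e-04 by edgeR's test). Next in size among the called genes were Obp59a at -1.83 (SE 0.49, adjusted p = 0.0205), Obp56e at -1.37 (SE 0.23, adjusted p = 0.00386), Obp56f at -1.33 (SE 0.24, adjusted p = 0.00494) and Obp56a at -1.32 (SE 0.22, adjusted p = 0.00392). Obp19d, Obp28a, Obp83cd, Obp18a, Obp56d and Obp8a lay between -1.22 and -1.06, and Obp83ef and Obp56g at -0.63 and -0.59. All 13 were lower in each null male library than in each null female library; 17 Obp genes were so in all and none the other way round, beside 25.3% and 19.5% of all tested genes.

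Of these 13 genes, 5 had not been called between genotypes in either sex. Obp56f had 6.434, 4.701 and 4.71 CPM for wild-type females, 5.929, 9.134 and 8.833 for null females, 3.231, 4.046 and 2.362 for wild-type males and 2.744, 2.834 and 3.936 for null males. Obp56g had 62.93, 57.18 and 62.15 CPM for wild-type females, 96.2, 69.18 and 59.25 for null females, 61.98, 59.12 and 53.48 for wild-type males and 49.75, 53.28 and 46.53 for null males. Both are known also from the male reproductive tract, and in heads Obp56g was lower in each null male library than in every other library, while Obp56f was low in both male groups, which overlapped. Obp83cd, the other dimer gene, had 14.55, 12.1 and 15.14 CPM for wild-type females, 21.44, 13.37 and 12.24 for null females, 10.1, 9.946 and 12.18 for wild-type males and 7.096, 7.571 and 6.132 for null males. Obp28a had 147.8, 71.4 and 62.07, then 92.46, 68.06 and 50.83, then 81.33, 55.94 and 55.16, and 37.05, 31.34 and 23.12 CPM in the same order of groups. Obp59a, whose values are given above with the antennal genes, had likewise not been called between genotypes. Without null male library 3 the count of 13 fell to 8, with Obp83ef, Obp56g, Obp59a, Obp8a and Obp28a no longer called. Over all tested genes the calls fell from 3265 to 914 in the same fit.

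**Figure D5:**
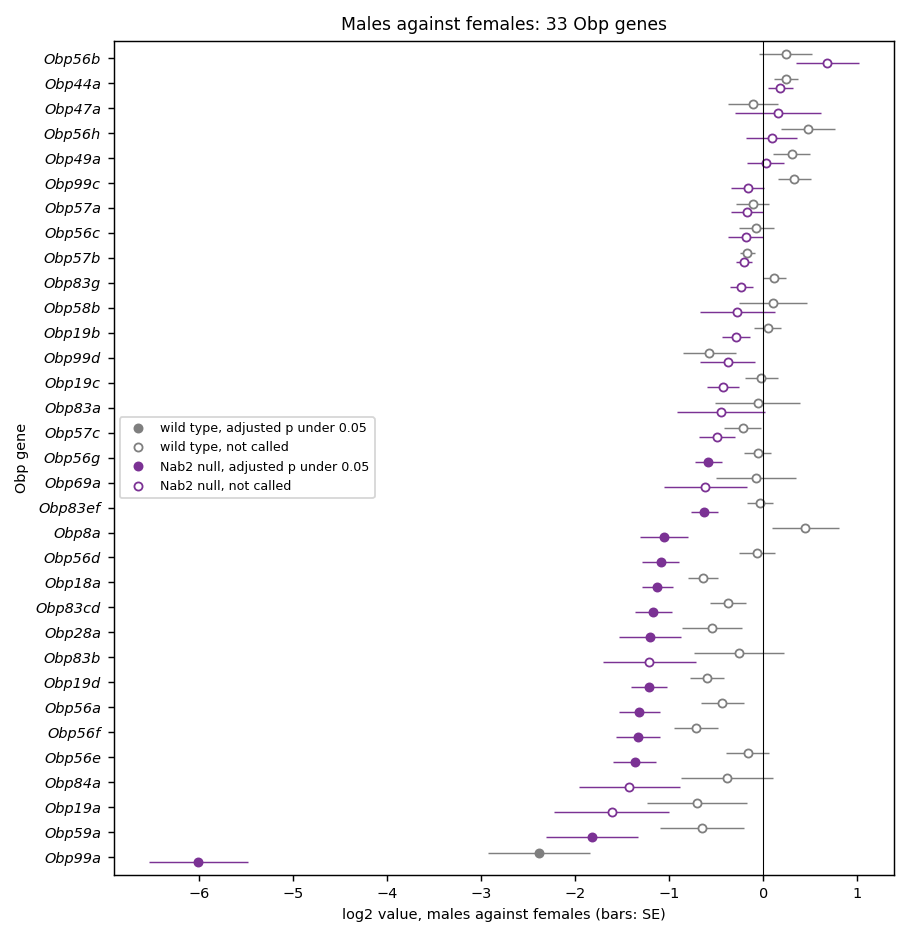
Log2 value in males against females for the 33 tested Obp genes in wild type (grey) and in Nab2 null (purple), with bars of 1 SE; filled points passed an adjusted p of 0.05 in edgeR's test. Among wild-type points only Obp99a is filled (-2.39), and 13 null points are filled, all below 0.

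The difference between the female and the male effect of the genotype was not called by edgeR for any Obp gene, beside 0.00891% of all tested genes. At an unadjusted p under 0.05 there were 9 Obp genes, or 27.3%, beside 11.6% of all tested genes, and DESeq2 called Obp99a alone, beside 0.245% of all genes it tested. The fitted difference, female effect minus male effect, was positive in 30 of the 33 genes, with a median of 0.50 against 0.03 over all tested genes. The share of positive differences over all tested genes was not counted. The Obp median was 0.37 without null female library 1 and 0.599 without wild-type female library 1. After Obp99a, the fitted differences were largest for Obp8a at 1.50 (SE 0.44), Obp56e at 1.20 (SE 0.32), Obp59a at 1.17 (SE 0.66), Obp84a at 1.04 (SE 0.73) and Obp56d at 1.03 (SE 0.27), with adjusted p-values of 0.427 to 0.496 in edgeR's test. The comparisons between genotypes, between sexes and of their difference share libraries, so their values for a gene are not independent of each other. For Obp57a the difference was 0.06 (SE 0.24) and for Obp47a -0.27 (SE 0.53).

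Overlapping genes touch a few of these values, since reads from opposite strands cannot be told apart if the counting did not use strand. Of the 817 exonic bases of Obp84a, 663 overlap CG10050 (Dtwd2) on the other strand, a gene at 4.56 to 6.15 CPM in all libraries, and Obp84a itself had 1.989 to 32.34 CPM. Obp44a shares 205 of 1076 bases with Pabp2, which had 11.6 to 25.4 CPM, against 1001 CPM or more for Obp44a. Obp59a shares 224 bases with CG30259, which averaged 0.283 to 0.472 CPM per group. Obp83cd and Obp83ef overlap each other by 92 bases at their ends.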

How the data were processed

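RNA from fly heads was measured as raw counts per gene, deposited by the authors as 1 file of whole-number counts for each of the 12 libraries. Per the labels' protocols, the libraries were made with a stranded kit after depletion of ribosomal RNA and sequenced as paired-end reads. Per the submitters' processing notes, STAR 2.5.2b-0, featureCounts 1.6.0.3, DESeq2 2.11.40.1 and the build BDGP6 were used; the annotation release and the strand setting are not given in the sources used here. The authors' normalized and comparison tables were not used.

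From these counts, edgeR 4.0.16 in R 4.3.3 kept 11223 of 17737 genes by filterByExpr, scaled the libraries by TMM factors and fitted 1 quasi-likelihood model with a mean for each of the 4 groups. The 5 contrasts compared the genotypes within females and within males, these effects with each other, and the sexes within each genotype. Benjamini-Hochberg adjustment ran over all tested genes of a contrast, and SE is the absolute log2 value divided by the square root of F. CPM values use the TMM-scaled library sizes; a prior count of 0.125 enters the fitted log2 values. Total counts per library were 23648813 to 30751922, and the common biological coefficient of variation was 13.47%. Positions, strands and exonic lengths came from the Ensembl 115 annotation of BDGP6.54, in which 14134 names matched by symbol and 3510 by synonym (99.5%), and 93 did not match.

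Alternatives were RLE scaling, total counts without scaling factors, no filter, DESeq2 1.42.0, a fit to the compared groups only, leaving out each library, and the replicate number as a block. The scripts were tested on simulated data. Every Obp gene may be named; full values are given for those called in any contrast and the 8 with the highest level per kilobase, and genes of the related lists where called, at most 6 per list. The Obp genes and the lists were chosen with earlier results of these data known, and the antennal set and the ratio to Orco after their values were seen. The other lists gave these calls in null females and null males, as higher and lower: sensory organ support cells (8 tested) 0 and 1, then 1 and 0; Johnston's organ (6 tested) 0 and 2, then 0 and 2; neurons (6 tested) 0 and 1, then 0 and 0; glia (8 tested) 2 and 2, then 1 and 0; hemocytes (7 tested) 2 and 3, then 1 and 1; photoreceptors (10 tested) 3 and 0, then 0 and 0. Over all tested genes 18.2% were called higher and 13.6% lower in females, and 4.89% and 5.03% in males.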

Additional observations from a re-analysis of the deposited data

How the results depend on the processing

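Of 36 calls of Obp genes over the contrasts, 24 held under every alternative and 12 were lost under some; none reversed. Genes called in null females numbered 14 to 17 when each library was left out in turn (12 to 14 higher, 1 to 3 lower). Those lower were 4 with total counts and 4 with the replicate block, against 2. Over all genes the female calls ran from 2068 to 3838 without 1 library, against 3573 with all 12. They were 3645 with total counts and 4058 with the replicate block. In null males the 7 calls became 13 with DESeq2, 11 with the compared groups only and 16 with the replicate block; higher calls were 5 with DESeq2 and 6 with the block, and lower calls 7 with total counts, 8 with DESeq2, 7 with the compared groups only and 10 with the block, against 3 and 4. Leaving out 1 library gave 3 to 13 male calls (2 to 6 higher, 1 to 8 lower), with 3 without null male library 3, 4 without wild-type male library 3, 13 without null female library 1 and 11 without wild-type female library 1. Over all genes these fits without a library gave 693, 841, 1852 and 1144 male calls in the order listed. The edgeR fit used in the results gave 1114, DESeq2 1470, the compared groups only 1191 and the replicate block 1395. For the difference between the sexes' effects, 0 became 1 with DESeq2 and 0 to 1 without 1 library. Over all genes that count was 1 in the edgeR fit used in the results, 27 with DESeq2 and 0 to 3 without 1 library. For wild-type males against females, 1 became 2 with RLE scaling, 2 without the filter, 3 with DESeq2 and 3 with the replicate block. Leaving out 1 library gave 0 to 3. Over all genes the 378 calls of the edgeR fit used in the results became 383, 532, 593 and 452 in the same order. They ran from 149 to 848 without 1 library. For null males against females, 13 became 8 to 17 without 1 library (0 to 1 higher, 8 to 16 lower). The 8 came without null male library 3 and the 17 without null female library 3. Over all genes these fits gave 914 and 3424 calls, against 3265 with all 12 libraries. The cause of these shifts was not tested. The replicate block called 6 antennal genes lower in null males, with adjusted p-values of 3.85e-04 for Obp84a, 0.00104 for Obp59a and Obp28a, 0.00252 for Obp83b, 0.00298 for Obp83a and 0.0207 for Obp69a, and lower in null females Obp83a (0.0173), Obp84a (0.0378) and Orco (0.00221); the blocked count for null males against females was 17; the numbers were not taken as pairs, since the labels do not say what same-numbered libraries share and the correlations of their deviations ran from 0.187 to 0.272 for number 1, -0.19 to 0.084 for number 2 and -0.078 to 0.31 for number 3. Of 32 group means, 1 moved by more than 1 SD with total counts (Obp56d in null males, 308 CPM). Low counts limit the precision for Obp47a, Obp56b and the 7 untested genes.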
